A study of Mus musculus with 4 samples.

Results

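Expression of 9 genes of insulin signalling was examined in mouse liver: the forkhead factors Foxo1, Foxo3 and Foxo4, the insulin receptor Insr, its substrates Irs1 and Irs2, the kinases Akt1 and Akt2, and Pik3r1, a regulatory subunit of PI3-kinase. They were chosen by gene name from the 37315 Ensembl genes counted in each library, and all 9 were found and passed the filter on low counts. The groups were 2 liver libraries from mice with a synonymous mutation of Foxo1 and 2 from wild type mice, all of strain C57BL/6 and 23 weeks of age. A synonymous mutation changes a codon without changing the amino acid. The sources used here do not give the codon that was changed, whether both alleles carried the change, or when the mice had last fed. Nothing in the labels ties the libraries to separate animals, so each p-value speaks of the spread between these 4 samples, part of which may be technical.

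Insulin binding to its receptor leads to tyrosine phosphorylation of the receptor and of the IRS proteins, which recruit PI3-kinase through regulatory subunits such as the product of Pik3r1. The lipid made by PI3-kinase brings Akt to the membrane, where it is activated. Akt phosphorylates Foxo proteins in the nucleus, and 14-3-3 proteins then hold them in the cytoplasm, so insulin turns Foxo-driven transcription off. In fasted hepatocytes Foxo1 is nuclear and activates genes of glucose production as well as Igfbp1 and Irs2, and through Irs2 it feeds back on the cascade itself.

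Foxo proteins bind the sequence GTAAACA and the related insulin response element core CAAAACA. RefSeq promoter windows of 300 bases (build GRCm38.p6, 250 bases before to 50 after a gene start) were found for 7 of the 9 genes, with 12 windows in all. No window was found for Foxo4 or Insr, so their promoters were not searched. One or the other motif, searched on both strands, was present in 3 windows, those of Irs1, Irs2 and the upstream start of Akt1. These are shown because they are the members whose promoter letters hold a Foxo-type motif; capitals mark the motif, which lies on the opposite strand in each and so reads TGTTTTG or TGTTTAC here.
Irs1 (chr1:82291390-82291689, minus strand): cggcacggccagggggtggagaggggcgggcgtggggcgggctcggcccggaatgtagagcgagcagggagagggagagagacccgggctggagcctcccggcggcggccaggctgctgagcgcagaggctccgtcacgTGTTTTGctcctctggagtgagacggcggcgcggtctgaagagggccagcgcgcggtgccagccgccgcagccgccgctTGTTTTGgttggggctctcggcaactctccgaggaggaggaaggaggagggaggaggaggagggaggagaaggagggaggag
Irs2 (chr8:11008880-11009179, minus strand): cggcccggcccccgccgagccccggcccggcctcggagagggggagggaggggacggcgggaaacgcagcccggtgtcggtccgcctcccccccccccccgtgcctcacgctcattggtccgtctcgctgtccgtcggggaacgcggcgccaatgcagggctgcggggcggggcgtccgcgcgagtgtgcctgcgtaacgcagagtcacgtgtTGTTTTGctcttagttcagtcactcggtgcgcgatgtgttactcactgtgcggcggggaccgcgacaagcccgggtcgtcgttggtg
Akt1 (chr12:112674835-112675134, minus strand): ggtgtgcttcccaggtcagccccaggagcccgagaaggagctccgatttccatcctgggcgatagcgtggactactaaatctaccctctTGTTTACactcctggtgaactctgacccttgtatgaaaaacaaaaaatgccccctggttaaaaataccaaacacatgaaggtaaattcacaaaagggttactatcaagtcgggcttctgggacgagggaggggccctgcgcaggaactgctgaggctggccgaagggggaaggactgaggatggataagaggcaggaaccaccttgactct
The capitals begin at positions −111 and −32 relative to the start of Irs1, at −37 for Irs2 and at −161 for Akt1, and no motif overlaps another. Positions are counted from the RefSeq start, which for Irs2 lies upstream of the GENCODE gene bounds given with its level. CAAAACA was present on either strand in 6.29% of the 32817 promoter windows of the same length, and GTAAACA in 3.65%. The share of those windows holding one or the other motif was not counted, so the count of member windows has no matching share. A match is a description of the letters and not evidence of binding.

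None of the 9 genes passed the test between mutant and wild type liver, given the spread between replicates. In the edgeR quasi-likelihood test with Benjamini-Hochberg adjustment over 14657 genes, 0 of 9 passed an adjusted p of 0.05, against 0.341% of all genes tested (0.280% higher and 0.0614% lower in mutant liver). At an unadjusted p below 0.05 there were also 0 of 9, against 6.19% of all genes. DESeq2 called 0 of the 9, against 0.842% of the 12702 genes to which it gave an adjusted p. Limma-voom called 0 of the 9, against 0.0478% of the 14657 genes. Of the 9 log2 fold changes (mutant over wild type), 5 were negative and 4 positive, with a median of −0.05 and a range of −0.19 to 0.20, against a median of −0.0013 and 50.3% negative over all genes tested. The groups did not overlap for 2 of the 9 genes, Foxo3 and Insr, both lower in mutant liver, against 34.1% of all genes tested. Levels are given as CPM, counts scaled by library size, and a positive fold change means a higher level in mutant liver.

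**Figure D1:**
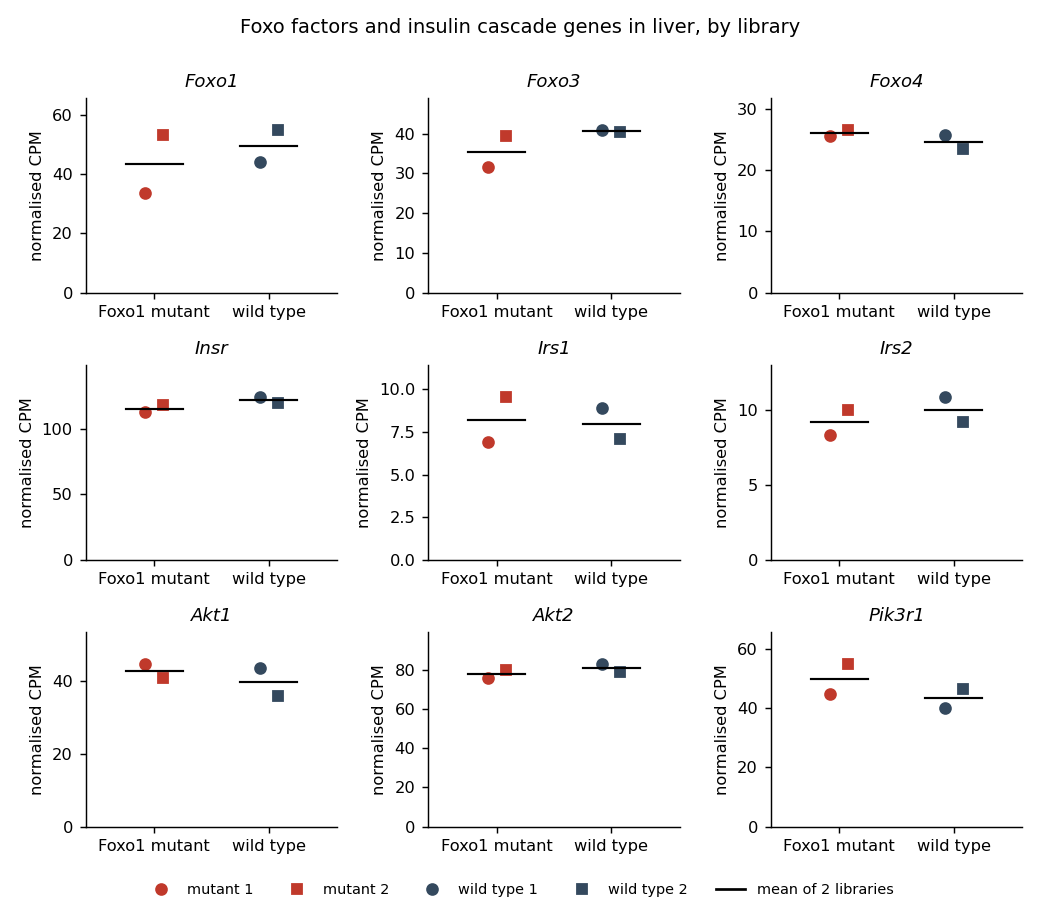
Normalised CPM, counts scaled by library size (y axis from 0) of each of the 9 genes in the Foxo1 mutant libraries (red) and the wild type libraries (dark blue); points are libraries (circle, replicate 1; square, replicate 2) and lines are means of 2 libraries. Foxo1 spans 33.6 to 53.4 CPM in the mutant libraries, which contains the level of wild type replicate 1.

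Total counts were 95908652 and 83594287 in mutant replicates 1 and 2, and 80975687 and 73551737 in wild type replicates 1 and 2, so that each of the 9 genes had at least 514 reads in every library. Hepatocyte markers (Alb, Ttr, Apoa1 and 7 others) summed to 119576 and 118821 CPM in mutant liver and 119564 and 132139 CPM in wild type liver. Of 6 acinar markers, Prss2, Cpa1 and Cel had a count of 0 in all 4 libraries, and the 6 summed to 18.6 and 19.0 CPM in mutant and 23.1 and 20.6 CPM in wild type liver, nearly all of it Cela1. Of 5 adipocyte markers Adipoq and Plin1 were at 0, with a sum of 1.38 and 2.20 CPM in mutant and 1.93 and 1.56 CPM in wild type liver. Of 5 muscle markers Ckm was at 0, with a sum of 0.504 and 0.406 CPM in mutant and 0.350 and 0.291 CPM in wild type liver. Markers of Kupffer cells, the macrophages of liver, stood apart between the groups: all 12 were higher on average (median log2 fold change 0.66), 7 of them rose past the edgeR threshold (10 with DESeq2, 1 with limma-voom), and their summed level was 505 and 577 CPM in mutant against 330 and 350 CPM in wild type liver. The part of this difference in the results that follow was not tested. Across all genes 50 passed the threshold; leaving out mutant replicate 1 or 2 gave 3 or 15, and leaving out wild type replicate 1 or 2 gave 13 or 17. With each of the 4 libraries left out in turn, 0 of the 12 macrophage markers passed and all 12 kept a positive fold change.

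Foxo1, the mutated gene (ENSMUSG00000044167, mm10 chromosome 3, 52268336 to 52353221, plus strand), had the largest error of the 9. Read counts over the gene do not show the exchanged base, so they do not check the labels. Foxo1 was counted at 33.6 and 53.4 CPM in mutant replicates 1 and 2 and at 44.0 and 54.8 CPM in wild type replicates 1 and 2, from 3202 and 4464 reads in mutant and 3648 and 3962 reads in wild type libraries. Mutant replicate 1 was the lowest of the 4 libraries, whereas mutant replicate 2 lay between the wild type libraries, so the groups overlapped. The log2 fold change was −0.18 with an SE of 0.30 and a 95% interval of −1.11 to 0.74, that is 0.463 to 1.67 times the wild type level (edgeR adjusted p = 1.0). Without mutant replicate 1 it was 0.11, and without mutant replicate 2 it was −0.56 (edgeR adjusted p = 0.547). A lower level in bulk liver cannot be told apart from fewer cells that express the gene.

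The gap between the mutant replicates was among the widest of well expressed genes. Foxo1 differed by −0.67 on the log2 scale between mutant replicates 1 and 2, and only 1.05% of the 5449 tested genes whose average log2 CPM was 4 or more had a gap as large in either direction. Between wild type replicates 1 and 2 it differed by −0.32, a gap reached by 6.61% of those genes. The SE of Foxo1 was the largest among the 9 members, of which the other 8 lay between 0.09 and 0.18. Exons of Foxo1 share 674 of 8665 bases with Gm20402, an antisense gene on the opposite strand with a count of 0 in all 4 libraries. The kit named in the labels, TruSeq RNA Sample Prep Kit v2, keeps no strand information, so reads in shared bases cannot be split by strand, here or for the other overlaps named.

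Foxo3, a related factor known for stress resistance and atrophy programmes (ENSMUSG00000048756, chromosome 10, 42181841 to 42276755, minus strand), was at 31.5 and 39.4 CPM in mutant replicates 1 and 2 and at 40.8 and 40.4 CPM in wild type replicates 1 and 2. Both mutant libraries were below both wild type libraries, but mutant replicate 2 was below by little, and most of the difference lay in mutant replicate 1. The log2 fold change was −0.19 (SE 0.11, 95% interval −0.43 to 0.05, edgeR adjusted p = 0.929). It was −0.04 without mutant replicate 1 and −0.37 without mutant replicate 2 (edgeR adjusted p = 0.605).

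Foxo4, the X-linked member of the family (ENSMUSG00000042903, chromosome X, 101254528 to 101260873, plus strand), was at 25.6 and 26.4 CPM in mutant and 25.6 and 23.4 CPM in wild type liver. The 4 libraries lay close together and the groups overlapped. The difference of 0.09 on the log2 scale (SE 0.10, edgeR adjusted p = 1.0) had a 95% interval equal to 0.914 to 1.23 times the wild type level. Of Foxo6, the remaining family member, 5 and 0 reads were counted in mutant and 4 and 0 reads in wild type libraries, close to a floor of 3 reads.

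The insulin receptor Insr (ENSMUSG00000005534, chromosome 8, 3122061 to 3279617, minus strand) had the highest counts of the 9. It was at 113 and 119 CPM in mutant and at 125 and 121 CPM in wild type liver. Both mutant libraries were below both wild type libraries, the nearest pair by little. The difference of −0.08 on the log2 scale (SE 0.09, edgeR adjusted p = 1.0) had an interval of 0.824 to 1.09 times the wild type level. The related receptor Igf1r, which binds IGF-1 and is low in hepatocytes, had 17 and 54 reads in mutant and 37 and 39 reads in wild type libraries.

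The receptor substrates were the least expressed members, per library and per exon length. Irs1 (ENSMUSG00000055980, chromosome 1, 82233101 to 82291416, minus strand) was at 6.91 and 9.54 CPM in mutant and at 8.89 and 7.11 CPM in wild type liver. The mutant libraries lay outside the wild type range on both sides, and the log2 fold change was 0.04 (SE 0.18, 0.781 to 1.35 times the wild type level, edgeR adjusted p = 1.0). Its sign turned when mutant replicate 2 (−0.21) or wild type replicate 2 (−0.11) was left out. Irs2 (ENSMUSG00000038894, chromosome 8, 10984681 to 11008458, minus strand), the substrate that Foxo1 activates in fasting liver, was at 8.33 and 9.98 CPM in mutant and at 10.8 and 9.18 CPM in wild type liver. Mutant replicate 1 was the lowest and wild type replicate 1 the highest library, with overlapping groups and a fold change of −0.13 on the log2 scale (SE 0.14, 95% interval −0.44 to 0.18, edgeR adjusted p = 1.0). Leaving out mutant replicate 1 gave −0.0028, wild type replicate 1 −0.0033 and mutant replicate 2 −0.27. Irs1 shares 2822 of its 9144 exon bases with the opposite-strand gene Gm9747, which had a count of 0 in all 4 libraries. Irs2 shares 162 bases with the opposite-strand gene 9530052E02Rik, which was not among the genes counted in the libraries. How reads in shared bases were counted is not stated, so the level of Irs1, its place as the least expressed member and its ratio to Irs2 may be too low.

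Pik3r1 (ENSMUSG00000041417, chromosome 13, 101680563 to 101768217, minus strand), whose product p85 alpha holds the catalytic subunit of PI3-kinase and docks it on IRS proteins, had the largest positive log2 fold change of the 9. It was at 44.6 and 54.7 CPM in mutant and at 40.1 and 46.5 CPM in wild type liver. Mutant replicate 2 was the highest library, whereas mutant replicate 1 lay between the wild type libraries. The log2 fold change was 0.20 (SE 0.12, 95% interval −0.06 to 0.45, edgeR adjusted p = 0.946), and it ranged from 0.04 without mutant replicate 2 to 0.34 without mutant replicate 1 (edgeR adjusted p = 0.674).

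Akt2 had the smallest SE of all members, whereas that of Akt1 was larger than those of Insr and Foxo4. Akt2 (ENSMUSG00000004056, chromosome 7, 27591552 to 27640826, plus strand), the isoform most tied to insulin action on metabolism, was at 75.8 and 80.2 CPM in mutant and at 82.9 and 78.8 CPM in wild type liver. Its difference of −0.05 on the log2 scale (SE 0.09, edgeR adjusted p = 1.0) had an interval of 0.844 to 1.10 times the wild type level. Akt1 (ENSMUSG00000001729, chromosome 12, 112653821 to 112674884, minus strand), the isoform tied to growth and survival, was at 44.7 and 40.9 CPM in mutant and at 43.7 and 35.9 CPM in wild type liver. The groups overlapped for both kinases. The log2 fold change of Akt1 was 0.10 (SE 0.11, 0.913 to 1.27 times the wild type level, edgeR adjusted p = 1.0) and turned to −0.031 without wild type replicate 2.

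**Figure D2:**
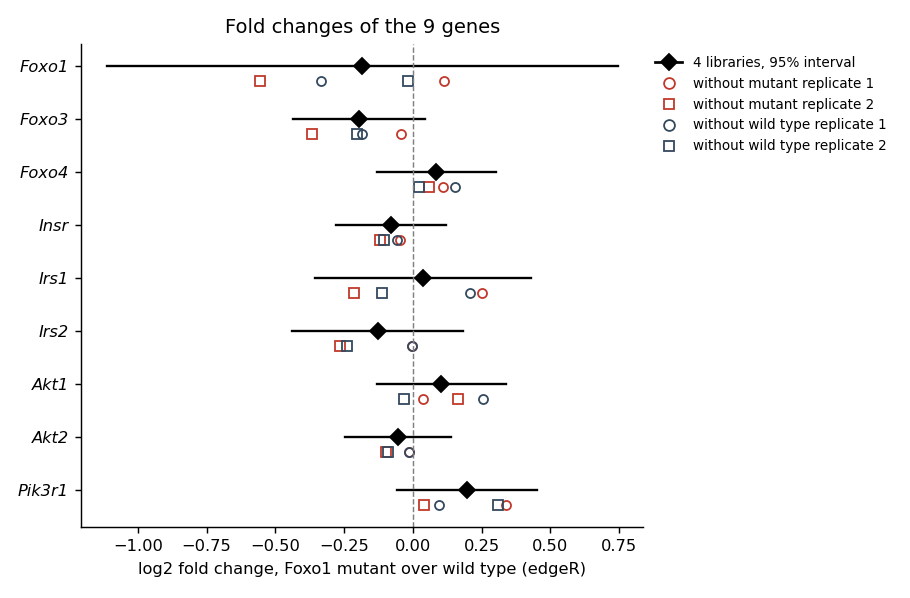
Log2 fold change of each gene, Foxo1 mutant over wild type (x axis), with its 95% interval from the 4 libraries (diamond and line) and the value with each library left out (open symbols below the line). The interval of Foxo1, from −1.11 to 0.74, is the widest, and all 9 intervals contain 0.

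Mutant replicate 1 stood below mutant replicate 2 for 8 of the 9 genes, all but Akt1, against 48.9% of the 5449 genes whose average log2 CPM was 4 or more. Irs1 and Irs2 lie under that level and so are counted among the 9 but not among the 5449. In wild type liver 2 of the 9 genes, Foxo1 and Pik3r1, were lower in replicate 1 than in replicate 2, against 49.8% of those 5449 genes. Besides Foxo1, Irs1 had a wide gap between the mutant replicates, −0.46 on the log2 scale, reached by 2.77% of those genes although Irs1 itself lies under that level, and Foxo3 a gap of −0.32, reached by 6.99%. The gaps of Foxo4, Insr and Akt2 between the mutant replicates were small, reached by 59.9% to 76.6% of those genes.

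Divided by exon length, the members spanned an order from Akt2 down to Irs1. The mean over the 4 libraries was 11.1 CPM per kb of exon for Akt2, 10.1 for Akt1, 8.68 for Insr and 7.25 for Foxo4. Foxo1 followed at 5.36 CPM per kb, Foxo3 at 5.02, Pik3r1 at 4.61, Irs2 at 1.51 and Irs1 at 0.887. Neighbours in this order whose ranges over the 4 libraries overlapped were Akt2 and Akt1, Akt1 and Insr, Foxo1 and Foxo3, and Foxo3 and Pik3r1. Insr was apart from Foxo4, Foxo4 from Foxo1, Pik3r1 from Irs2, and Irs2 from Irs1. Akt2 exceeded 83.9% of the tested genes in CPM per kb and Irs1 34.5%. The exons are those of GENCODE M21, which may differ from the annotation the authors counted against.

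The order depended on the length used. With the longest transcript in place of all exons, Pik3r1 (6.54 CPM per kb) moved ahead of Foxo3 (5.55) and Foxo1 (5.36), and Akt2 (17.5), Akt1 (15.4) and Insr (12.7) no longer overlapped. With exon bases shared with other counted genes left out, Irs1 was at 1.28 CPM per kb and its range overlapped that of Irs2, and that of Foxo1 (5.81) overlapped that of Foxo4.

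**Figure D3:**
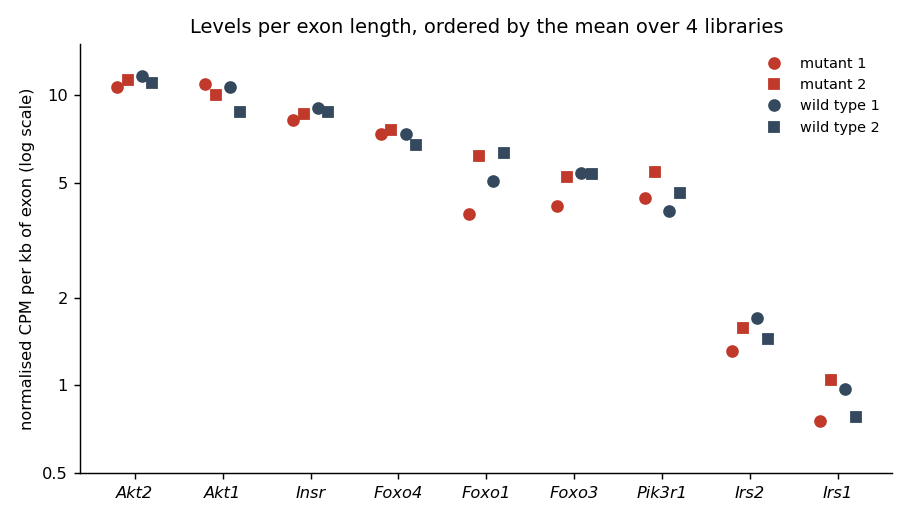
Normalised CPM per kb of exon (log scale) of each gene in the 4 libraries, with genes ordered by their mean and symbols as in the plot of CPM by library. Akt2, Akt1 and Insr lie at the top between 8.23 and 11.6 CPM per kb, and both receptor substrates lie at or below 1.71.

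Within the family, Foxo4 was the most abundant Foxo transcript per exon length in all 4 libraries, except that in wild type replicate 2 Foxo1 was ahead (6.86 against 6.72 CPM per kb) once exon bases shared with other genes were left out. It made up 47.7% and 40.0% of the summed CPM per kb of Foxo1, Foxo3 and Foxo4 in mutant liver and 41.3% and 36.5% in wild type liver. Foxo1 made up 25.2% and 32.5% in mutant liver and 28.5% and 34.4% in wild type liver. The summed level of the 3 factors was 15.4 and 19.0 CPM per kb in mutant and 17.8 and 18.4 CPM per kb in wild type liver, so mutant replicate 1 was low and the other 3 libraries were close.

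The ratio of Foxo1 to Foxo3 per kb, which does not depend on library scaling, was 0.933 and 1.18 in mutant replicates 1 and 2 and 0.942 and 1.19 in wild type replicates 1 and 2. The groups differed by −0.01 on the log2 scale (exact two-sided permutation p = 0.667), less than the SDs of 0.24 in both groups. Foxo1 to Foxo4 was 0.528 and 0.812 in mutant and 0.690 and 0.942 in wild type liver, a log2 difference of −0.30 (exact permutation p = 0.667), which was 0.0097 without mutant replicate 1. With 2 libraries against 2 the exact test cannot go below 0.333, and all 4 ratios compared had a Benjamini-Hochberg adjusted p of 0.667.

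Irs1 to Irs2 was 0.574 and 0.661 in mutant and 0.568 and 0.536 in wild type liver, a log2 difference of 0.16 with groups that did not overlap (exact permutation p = 0.333), which ran from 0.06 without mutant replicate 2 to 0.26 without mutant replicate 1. Irs2 was thus the more abundant substrate per exon length in all 4 libraries, and it remained so, with ratios of Irs1 to Irs2 of 0.830 and 0.956 in mutant and 0.822 and 0.775 in wild type liver, with shared exon bases left out. Akt1 to Akt2 was 1.03 and 0.887 in mutant and 0.918 and 0.792 in wild type liver, a log2 difference of 0.16 (exact permutation p = 0.667) that lay between 0.06 and 0.27 with each library left out.

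Paralogs outside the 9 genes differed in how much they were expressed. Pik3r2, which encodes p85 beta, was at 4.41 and 4.81 CPM per kb in mutant and 4.92 and 4.44 CPM per kb in wild type liver, within the range of Pik3r1. Irs4 had a count of 0 in all libraries, where 3 reads stand for 0.0313 to 0.0408 CPM, and Irs3 had between 4 and 11 reads.

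Further cascade genes were arranged by role in 6 lists of 119 genes, with 118 found in the files and 113 left after the filter on low counts. Of the 113, edgeR, DESeq2 and limma-voom each called 0, and 5 had an unadjusted edgeR p below 0.05, where 6.19% of all genes tested did. Fold changes were positive for 61 and negative for 52, with a median of 0.0058 on the log2 scale. Genes are named from each list by their abundance (at most 2) or as the gene with the smallest p. At the receptor level, 0 of 19 adaptors, docking proteins and phosphatases passed, with a median of 0.01. The most abundant were Ceacam1, which promotes insulin clearance, at 210 ± 17.6 CPM in mutant and 204 ± 19.6 CPM in wild type liver (SD, n = 2 each), and the receptor phosphatase Ptprf at 191 ± 17.6 CPM in mutant and 211 ± 7.39 CPM in wild type liver. The smallest p was that of the adaptor Grb7, at 99.8 ± 6.09 CPM in mutant and 113 ± 4.52 CPM in wild type liver (log2 fold change −0.18, edgeR adjusted p = 0.913).

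Among 14 PI3-kinase subunits and inositol lipid phosphatases, 0 passed and 10 were higher on average in mutant liver (median 0.10). The catalytic subunit Pik3ca was at 33.5 ± 0.794 CPM in mutant and 33.3 ± 2.77 CPM in wild type liver. Inpp5d, which encodes the 5-phosphatase SHIP1 of blood cells, had the smallest p of this list, with 5.17 and 4.33 CPM in mutant and 3.44 and 3.25 CPM in wild type liver (log2 fold change 0.51, edgeR adjusted p = 0.579). In the same libraries the 12 macrophage markers had a median of 0.66 on the log2 scale. The 9 blood cell markers had one of 0.77, all 9 positive and 2 past the threshold, and summed to 294 and 330 CPM in mutant against 236 and 259 CPM in wild type liver. Their part in the level of Inpp5d was not tested.

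Among 18 genes around Akt, 0 passed, with a median of −0.0040. The phosphatase subunit Ppp2ca was at 99.9 ± 1.66 CPM in mutant and 100.04 ± 6.02 CPM in wild type liver, and the kinase Sgk2 at 58.2 ± 10.99 CPM in mutant and 66.4 ± 5.47 CPM in wild type liver. Trib3, a pseudokinase that binds Akt, had the smallest p, with 2.85 and 3.02 CPM in mutant and 4.34 and 5.73 CPM in wild type liver. Both mutant libraries lay below both wild type libraries, and the difference was −0.78 on the log2 scale (SE 0.19, edgeR adjusted p = 0.191). With no filter on low counts Trib3 passed (edgeR adjusted p = 0.0137). That fit called 258 of 23104 genes, against 50 of 14657 with the filter.

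Of 17 genes of the mTOR complexes, 0 passed, and their log2 fold changes lay within −0.20 and 0.17, with a median of −0.0071. Deptor, an mTOR-binding inhibitor, was at 156 ± 10.97 CPM in mutant and 154 ± 11.3 CPM in wild type liver, and the translation repressor Eif4ebp2 at 80.1 ± 11.1 CPM in mutant and 83.07 ± 3.65 CPM in wild type liver. Tbc1d7, a subunit of the TSC complex, had the smallest p, at 6.86 ± 0.924 CPM in mutant and 7.89 ± 0.549 CPM in wild type liver (edgeR adjusted p = 0.986). Of 29 Foxo cofactors, modifiers and exporters, 0 passed, with a median of 0.0011. Ctnnb1, beta-catenin, which binds Foxo proteins, was at 161 ± 3.03 CPM in mutant and 155 ± 4.48 CPM in wild type liver, and the 14-3-3 gene Ywhae at 151 ± 6.49 CPM in mutant and 151 ± 0.871 CPM in wild type liver. The ubiquitin ligase Stub1 had the smallest p, at 11.5 ± 0.154 CPM in mutant and 12.9 ± 0.0913 CPM in wild type liver (edgeR adjusted p = 0.971).

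Of 16 other forkhead factors tested, 0 passed and 10 were higher on average in mutant liver (median 0.06). Foxa2, a pioneer factor of hepatocytes, had the smallest p of all 113 genes, with 25.3 and 20.9 CPM in mutant and 16.5 and 15.97 CPM in wild type liver. Both mutant libraries lay above both wild type libraries, and the difference was 0.51 on the log2 scale (SE 0.12, edgeR adjusted p = 0.141). With no filter on low counts Foxa2 passed (edgeR adjusted p = 0.00108), in a fit that called 258 of 23104 genes. Foxa2 and Trib3 were themselves kept by the filter. Foxk1, a forkhead factor of glycolytic and autophagy genes, was at 23.7 ± 3.13 CPM in mutant and 25.2 ± 0.0536 CPM in wild type liver. Foxq1, chosen after its value was seen, was at 16.2 and 11.5 CPM in mutant and 2.89 and 7.02 CPM in wild type liver (log2 fold change 1.49, edgeR adjusted p = 0.936), and passed only without wild type replicate 2 (2.26, edgeR adjusted p = 0.0281). It shares 3200 of 4843 exon bases with the opposite-strand gene A530084C06Rik. Of the genes named by role, Ppp2ca shares 2985 exon bases with 9430098F02Rik, Stub1 1084 with Jmjd8, Ctnnb1 759 with Ulk4 and Deptor 303 with Gm9920, each on the opposite strand. Of these overlapping genes, 9430098F02Rik was not among the genes counted in the libraries.

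**Figure D4:**
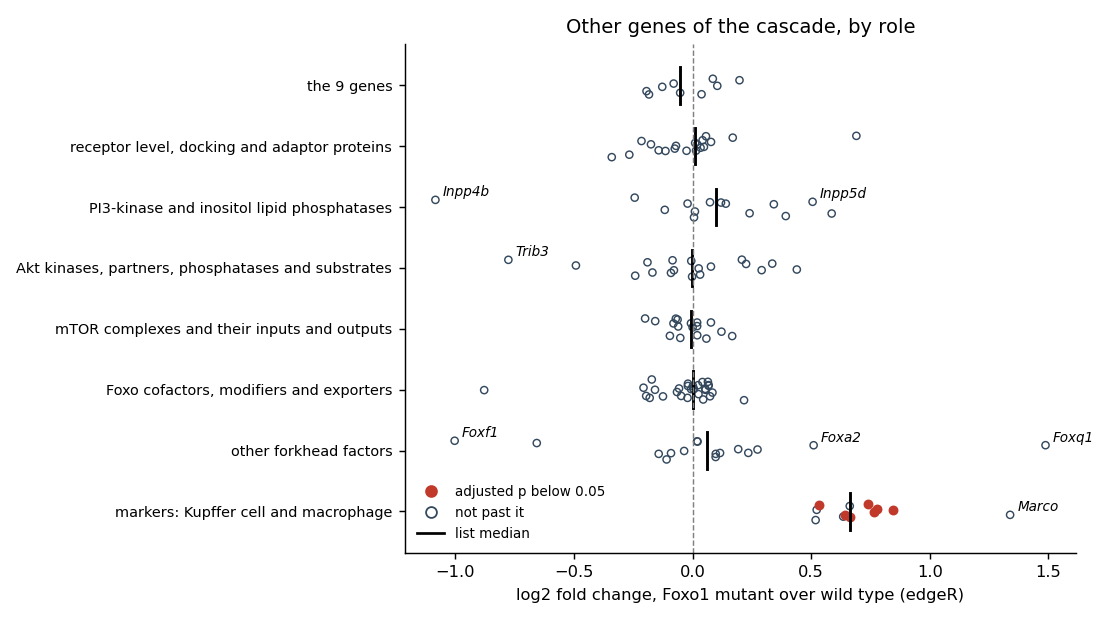
Log2 fold change (x axis, Foxo1 mutant over wild type) of each tested gene in the 9-gene set, in 6 lists of other cascade genes and in the macrophage marker list, with black bars for list medians and filled points for genes past an adjusted p of 0.05. Among the 9 genes and the cascade lists 0 genes pass and the medians lie between −0.05 and 0.10, whereas the macrophage markers have a median of 0.66.

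The genes whose levels followed Foxo1 most closely over the 4 libraries were found by the root mean square difference of mean-centred log2 CPM. The ranking covered 5440 genes whose average log2 CPM was 4 or more, not the same set as the 5449 genes used for the replicate gaps. The 5 closest with an established symbol were the Krüppel-like factor Klf13 (difference 0.02), the methyl-CpG binding gene Mbd1 (0.03), the ubiquitin ligase Rnf169 (0.05), Igfbp1 (0.06) and the kinase Mknk2 (0.07). Igfbp1 is a secreted IGF-binding protein and a classical Foxo1 target in liver. It was at 66.6 and 97.5 CPM in mutant and at 85.6 and 98.6 CPM in wild type liver, lowest in mutant replicate 1 as Foxo1 was. Because the 5 genes were picked for likeness to Foxo1, this shared lowest library was set by the choice. An effect of Foxo1 on Igfbp1 was not tested. Among the members Foxo3 ranked 79, Pik3r1 1005, Insr 1339, Akt2 1520, Foxo4 3442 and Akt1 5103, while Irs1 and Irs2 were below the expression limit for ranking. These ranks describe 4 libraries and are not a test.

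**Figure D5:**
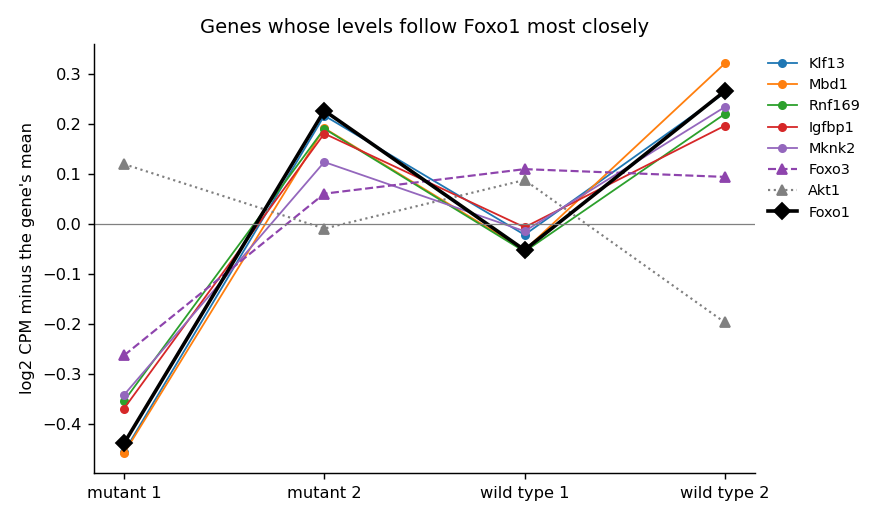
Log2 CPM minus each gene's mean over the 4 libraries (y axis) for Foxo1 (black), the 5 genes closest to it, Foxo3 and Akt1; lines only join the points of a gene. Foxo1 is lowest in mutant replicate 1 and highest in wild type replicate 2, as are the 5 genes chosen for likeness to it. Akt1, which ranked 5103, is highest in mutant replicate 1.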

How the data were processed

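RNA was isolated from liver with TRIzol, and about 100 ng of mRNA went into Illumina TruSeq libraries sequenced as paired reads of 150 bp, per the labels' protocols. Each deposited file lists unnormalised counts of reads for every Ensembl gene of 1 library. The submitters' processing notes name TopHat2 2.1.1, HTSeq 0.6.0 and the build mm10. The sources used here do not give the counting mode, strand setting or annotation release. Symbols matched 35449 of 37315 identifiers (95.0%). Coordinates and exon lengths come from GENCODE M21, on the assembly that mm10 names.

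Genes kept by filterByExpr (minimum count 10) were scaled by TMM and tested with edgeR 4.0.16 (glmQLFit, robust, group as the only term) in R 4.3.3, with Benjamini-Hochberg adjustment over 14657 genes. The SE was taken from the fold change and the F statistic. CPM are counts over TMM-scaled library sizes, and intervals are at 95%. The floor of 3 counts covers counting error only. No pair of libraries agreed within sampling noise (mean chi-square over genes of 61.7 to 106). Alternatives were other scalings and filters, DESeq2 1.42.0, limma-voom (limma 3.58.1), no robust estimation, a replicate block and each library left out; the other exon lengths were added after the data were seen. Members and lists were chosen with earlier results of these data known. Besides the 9 members, the rule for named genes took in each list the 2 genes of highest average level and the 1 of smallest p, and the 5 genes most like Foxo1. Some genes that it took are not reported here.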

Additional observations from a re-analysis of the deposited data

How the results depend on the processing

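The count of 0 members past the threshold held under all alternatives run, with the smallest adjusted p 0.547, for Foxo1 without mutant replicate 2. Fold changes moved little with scaling, filter or tool, for Foxo1 between −0.21 and −0.18. They moved more with the libraries. With each library left out, the log2 fold change lay between −0.56 and 0.11 for Foxo1, −0.21 and 0.25 for Irs1, and −0.031 and 0.25 for Akt1, and these 3 of the 9 genes changed sign; Irs2 lay between −0.27 and −0.0028. Foxo1 turned positive without mutant replicate 1, Irs1 negative without mutant replicate 2 or wild type replicate 2 (−0.11), and Akt1 negative without wild type replicate 2. A lone library was assumed to vary like the other group. The Foxo1 to Foxo3 difference lay between −0.18 and 0.16 (0.16 without mutant replicate 1, 0.16 without wild type replicate 2) and the Foxo1 to Foxo4 difference between −0.61 and 0.0097. The number of all genes past the threshold was 258 with no filter, 24 with at least 1 CPM in 2 libraries, 107 with DESeq2, 7 with limma-voom, 8 without robust estimation and 3 to 17 with a library left out; the cause was not tested. Cascade genes past it numbered 2 with no filter (Trib3 and Foxa2) and 0 to 1 with a library left out. With the replicate number as a block 111 genes passed, 49 of them among the 50, and 0 members. Deviations of same-numbered libraries from their group means were not correlated over genes (correlation −0.0072). With 2 libraries a group, this cannot settle whether same-numbered libraries share more than a number. With 2 libraries a group, the 95% interval of Foxo1 spans 0.463 to 1.67 times the wild type level.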
